A study of Arabidopsis thaliana with 71 samples.

Results

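The response described here is the change in messenger RNA that GR-KAN1 seedlings of Arabidopsis thaliana showed after 120 min of dexamethasone, over and above the change in wild type (WT) seedlings in the same 120 min. It rests on 18 of the 71 libraries of the study, chosen by their labels alone. GR-KAN1 was sequenced in 3 libraries at 120 min and 3 at 0 min, and WT in 6 libraries at each of those times. WT replicates 4 to 6 differ in library code series between 0 and 120 min, so series and time cannot be told apart in them. All seedlings were of the Columbia ecotype and were grown together in shaken liquid medium for 7 days before dexamethasone was added to 50 µM, and whole seedlings were frozen. GR-KAN1 carries KANADI1 (KAN1) joined to the glucocorticoid receptor (GR), and WT carries no fusion but received the same hormone. The sources used here do not give the promoter of the fusion, the number of independent transformants or whether the seedlings of 1 flask made 1 library. The other lines, GR-AS2 (Asymmetric Leaves 2), GR-STM (Shoot Meristemless) and GR-REV (Revoluta), were sequenced in the same way and are used below only to show where GR-KAN1 differed from them.

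KAN1 is a DNA-binding protein of the GARP family that marks the lower (abaxial) side of leaves and the outer tissues of the shoot. It acts mainly as a repressor, opposes the HD-ZIP III proteins of the upper side, and is known to act on genes of auxin response and transport. A GR fusion is held in the cytoplasm until a glucocorticoid such as dexamethasone binds it, so that the hormone starts the factor's action in the nucleus. AS2, an upper-side gene, has been described as a direct target that KAN1 represses.

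A GARP protein binds short DNA words, and the letters GNATAA and GNATAT (N is any base) have been described for KAN1. Promoters of 5 genes on which the results below turn are printed here so that these words can be seen in place, and are taken from the RefSeq annotation of TAIR10.1. Each run is the 250 bases before the annotated gene start, read 5′ to 3′ on the strand of the gene, and capitals mark every match to either word on either strand. Matches that overlap appear as 1 longer run of capitals.
GA20OX3: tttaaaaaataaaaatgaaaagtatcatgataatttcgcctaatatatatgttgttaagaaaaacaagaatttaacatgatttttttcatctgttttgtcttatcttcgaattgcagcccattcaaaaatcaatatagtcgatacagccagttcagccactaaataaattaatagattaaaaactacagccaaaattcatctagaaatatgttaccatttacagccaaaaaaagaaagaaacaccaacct
AT4G18650: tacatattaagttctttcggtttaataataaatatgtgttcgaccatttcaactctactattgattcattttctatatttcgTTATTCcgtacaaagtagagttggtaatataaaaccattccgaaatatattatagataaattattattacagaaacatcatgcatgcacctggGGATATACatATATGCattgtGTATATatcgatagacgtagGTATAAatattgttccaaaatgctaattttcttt
AT1G25550: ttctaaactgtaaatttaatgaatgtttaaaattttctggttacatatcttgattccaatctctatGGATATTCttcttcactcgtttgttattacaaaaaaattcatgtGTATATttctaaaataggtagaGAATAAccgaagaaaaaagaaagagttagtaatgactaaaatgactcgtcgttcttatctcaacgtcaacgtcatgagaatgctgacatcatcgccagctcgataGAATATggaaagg
AT3G19850: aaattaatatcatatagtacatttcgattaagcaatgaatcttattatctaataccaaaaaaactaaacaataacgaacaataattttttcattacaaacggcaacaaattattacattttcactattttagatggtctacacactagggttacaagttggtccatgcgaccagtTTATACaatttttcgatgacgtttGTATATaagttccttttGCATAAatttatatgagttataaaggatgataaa
PYL6: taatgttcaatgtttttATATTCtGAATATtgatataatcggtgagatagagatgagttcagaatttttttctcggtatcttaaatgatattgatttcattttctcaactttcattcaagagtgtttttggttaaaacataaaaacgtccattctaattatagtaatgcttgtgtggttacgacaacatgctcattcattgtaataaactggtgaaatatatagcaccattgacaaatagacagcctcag
GA20OX3 and AT4G18650 rose and AT1G25550, AT3G19850 and PYL6 fell. The windows are chr5:2245340-2245589 (minus strand), chr4:10265440-10265689 (minus), chr1:8976076-8976325 (plus), chr3:6901335-6901584 (minus) and chr2:16846195-16846444 (minus). They hold 0 matches in GA20OX3, 6 in AT4G18650, 5 in AT1G25550, 3 in AT3G19850 and 2 in PYL6. At least 1 match stood in the window of 45 of the 56 genes that rose (80.4%) and 89 of the 107 that fell (83.2%), beside 14563 of the 19169 tested genes with an annotated start (76.0%). The words are 6 letters long and common, and windows with 3 or more matches made up 21.4% of those of genes that rose, 25.2% of those that fell and 21.5% of all. A match is a string of letters in the window, and binding was not measured.

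The deposited values are FPKM, fragments scaled to transcript length and library size. The median over genes was 4.25 to 4.79 FPKM in the 18 libraries, and 332 to 1075 genes were listed at 0. A 0 need not mean absence of RNA, since 16 genes with a median above 20 FPKM were at 0 in some of the 18 libraries, and RBCS1A, a Rubisco subunit gene that all green seedlings use, was listed at 0 in all 6 GR-KAN1 libraries and in WT replicates 1 to 3 at both times. The depth per library is unknown, so the number of replicates limits the precision. Libraries of a group correlated at a median of 0.921 to 0.974. WT 0 min replicate 2 stood furthest from its group on the first axis of the residuals, which held 11.9% of their variance. KAN1 itself, the gene of the fusion, had 299, 189.8 and 99.4 FPKM in GR-KAN1 at 120 min and 241, 185 and 167 FPKM at 0 min, against 1.85 to 2.98 and 1.96 to 3.79 FPKM in WT. Every GR-KAN1 library stood far above every WT library, and the change beyond WT was 0.07 (SE 0.40, limma adjusted p = 0.99), so the transcript of the fusion did not pass the test for a change with the hormone.

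Levels were tested as log2(FPKM + 0.5) in 1 limma model over all libraries, and a gene was called when its Benjamini-Hochberg adjusted p, over the 19251 nuclear genes tested, was under 0.05. All log2 changes below are on this scale, which understates the change of genes at low level. Beyond WT, 56 genes rose (0.291%) and 107 fell (0.556%) at 120 min in GR-KAN1, together 0.847% of the genes tested. The median change over all genes was 0.02, and 1736 genes had an unadjusted p under 0.05. The calls that rose had a median change of 1.44 and those that fell one of -1.25, and 46 of the 56 and 79 of the 107 changed by more than 1 on the log2 scale. These groups are small and single libraries mattered: the count was 92 without GR-KAN1 0 min replicate 2, 92 without GR-KAN1 120 min replicate 1 and 123 without WT 0 min replicate 2. In WT replicates 1 to 3 alone, which share a library code series with GR-KAN1, 50 rose and 73 fell. Leaving out each of the 18 libraries in turn, 59 genes were called in all 18 fits, 23 that rose and 36 that fell. The called genes named in the comparisons below are among them, apart from list members for which a lost call is given; called genes among the closing observations are outside them.

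Most of these genes changed more in GR-KAN1 than in WT. Genes that rose beyond WT had a median change of 1.18 within GR-KAN1 and of -0.20 within WT, and in 3 of the 56 the WT change was the larger. For genes that fell, the medians were -0.95 within GR-KAN1 and 0.24 within WT, and the WT change was the larger in 2 of the 107. At 120 min the 3 GR-KAN1 libraries lay above all 6 WT libraries for 49 of the 56, where 6.71% of all genes did, and below all of them for 81 of the 107, where 7.78% did. At 120 min itself, 457 genes were called higher in GR-KAN1 than in WT (2.37%) and 567 lower (2.95%). Not all falls began level with WT: 33 of the 107 stood above every WT library at 0 min, where 4.02% of all genes did and 4.55% stood below, and 19 of these 33 did not end below WT. Such genes returned towards the WT level, and they are named as such below. The levels at both times are part of the contrast that called these genes, so shares above those of all genes follow from the selection. These counts are given as description only. In whole seedlings, fewer cells of a type and less RNA per cell cannot be told apart.

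**Figure D1:**
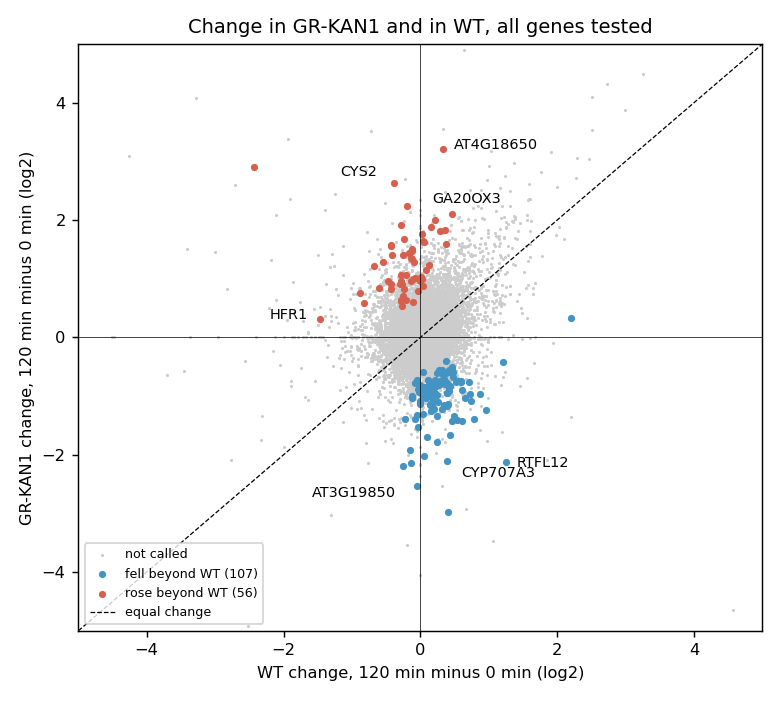
The change from 0 to 120 min within GR-KAN1 (vertical, log2) is plotted against the same change within WT (horizontal, log2) for all genes tested, with the 56 genes that rose beyond WT in red, the 107 that fell in blue and a dashed line of equal change. Most coloured points lie above or below the centre, not to its left or right; HFR1, at the left, is an exception, and 23 genes outside the axes, none of them called, are not drawn.

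The rises with the smallest adjusted p were of genes for a gibberellin enzyme, a protease inhibitor and a protein annotated as transcription factor-like. GA20OX3 (AT5G07200, chromosome 5, 2243553 to 2245339, minus strand) encodes a gibberellin 20-oxidase, which makes the precursors of active gibberellins. GA20OX3 had 2.73, 1.65 and 2.14 FPKM in GR-KAN1 at 120 min and 0, 0.135 and 0.0557 FPKM at 0 min, against a lowest, median and highest value of 0.0471, 0.124 and 0.227 FPKM in WT at 120 min and 0.0589, 0.181 and 0.275 FPKM in WT at 0 min. All 3 GR-KAN1 libraries at 120 min lay above every other library of the 4 groups, and the gene rose by 2.43 (SE 0.24, limma adjusted p = 1.05e-09). Its level was low throughout: GA20OX3 and AT4G18650 were the 2 called genes, among 114 tested, that reached the floor of 1 FPKM only in GR-KAN1 groups, so that they entered the test through the groups in which they are high.

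CYS2 (AT2G31980, chromosome 2, 13609093 to 13609955, minus strand) encodes a phytocystatin, an inhibitor of cysteine proteases. CYS2 had 75.4, 34.9 and 81.6 FPKM in GR-KAN1 at 120 min and 8.76, 10.4 and 8.71 FPKM at 0 min, against a lowest, median and highest value of 4.59, 6.6 and 10.05 FPKM in WT at 120 min and 3.94, 6.69 and 14.4 FPKM in WT at 0 min. It rose by 3.01 (SE 0.39, limma adjusted p = 1.88e-06), with GR-KAN1 at 120 min apart from all other libraries. AT4G18650 (chromosome 4, 10263969 to 10265439, minus strand) is annotated as a transcription factor-like protein and is the gene whose promoter above holds 6 matches. AT4G18650 had 8.68, 5.02 and 5.66 FPKM in GR-KAN1 at 120 min and 0.184, 0.316 and 0.197 FPKM at 0 min, against a lowest, median and highest value of 0.376, 0.515 and 1.46 FPKM in WT at 120 min and 0, 0.288 and 0.595 FPKM in WT at 0 min. No library of another group reached those of GR-KAN1 at 120 min, and the change was 2.88 (SE 0.37, limma adjusted p = 1.88e-06). CYS2 overlaps the annotated gene AT2G31970, and since the use of strand is not given, reads of the pair may be shared.

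Other enzymes rose from measurable levels. CYP96A9 (AT4G39480), a cytochrome P450, had 5.47, 3.12 and 4.66 FPKM in GR-KAN1 at 120 min and 0.318, 1.41 and 0.83 FPKM at 0 min, against 0.341 to 0.775 and 0.576 to 0.853 FPKM in WT. The groups did not overlap at 120 min, and it rose by 2.20 (SE 0.33, limma adjusted p = 7.10e-05). SQP1 (AT5G24150), of the squalene epoxidase family at the entry to sterol and triterpene synthesis, had 7.73, 10.07 and 12.3 FPKM in GR-KAN1 at 120 min and 3.65, 3.12 and 2.4 FPKM at 0 min, against 0.599 to 2.25 and 1.16 to 2.36 FPKM in WT. It was higher than in WT before the hormone and rose further, by 2.00 (SE 0.36, limma adjusted p = 0.00101). GSTU27 (AT3G43800), a tau-class glutathione transferase, had 257, 154 and 159 FPKM in GR-KAN1 at 120 min and 75, 60.5 and 63.4 FPKM at 0 min, against 39.5 to 92.2 and 46.7 to 101 FPKM in WT, a rise of 1.604 (SE 0.32, limma adjusted p = 0.00348). MES10 (AT3G50440), a methylesterase that overlaps AT3G50430, rose by 1.74 (SE 0.34, limma adjusted p = 0.00228). C/VIF1 (AT1G47960), an inhibitor of invertases, the enzymes that split sucrose, rose by 1.595 (SE 0.34, limma adjusted p = 0.00632) and had 11.5 to 17.1 FPKM in GR-KAN1 at 120 min and 3.66 to 6.1 FPKM at 0 min, against 3.35 to 5.9 and 2.93 to 6.21 FPKM in WT. C/VIF1 was not called without the code series in the model (1.28, adjusted p = 0.0541).

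Among genes of regulation and transport that rose, HB-12 (AT3G61890) encodes an HD-ZIP I homeodomain protein known from drought and abscisic acid responses. HB-12 had 24.6, 16.1 and 31.7 FPKM in GR-KAN1 at 120 min and 6.27, 7.72 and 4.91 FPKM at 0 min, against a lowest, median and highest value of 7.08, 7.78 and 9.44 FPKM in WT at 120 min and 3.33, 4.71 and 7.29 FPKM in WT at 0 min. The WT change was 0.37, and the highest WT library at 120 min stayed below the lowest of GR-KAN1, and HB-12 rose by 1.46 (SE 0.28, limma adjusted p = 0.00193). The call was lost without the code series in the model (1.14, adjusted p = 0.0509) and with only the 4 groups in it (1.27, adjusted p = 0.0892). FBH3 (AT1G51140), a bHLH factor that activates the flowering gene CONSTANS, had 7.76, 5.61 and 6.18 FPKM in GR-KAN1 at 120 min and 3.04, 2.94 and 3.69 FPKM at 0 min, against 2.79 to 4.41 and 3.64 to 4.9 FPKM in WT, and rose by 1.34 (SE 0.25, limma adjusted p = 0.00117). AT1G68570, annotated as NPF3.1 of the nitrate and peptide transporter family and overlapping AT1G68568, had 15.6 to 21.6 FPKM in GR-KAN1 at 120 min and 5.43 to 6.33 FPKM at 0 min, against 5.03 to 10.4 and 5.28 to 6.54 FPKM in WT, and rose by 1.21 (SE 0.23, limma adjusted p = 0.00227). HFR1 (AT1G02340), a bHLH protein of light and shade signalling, differs from these. It had 3.82, 3.05 and 2.35 FPKM in GR-KAN1 at 120 min and 1.89, 2.25 and 2.97 FPKM at 0 min, against 0.376, 1.25 and 1.97 FPKM (lowest, median and highest) in WT at 120 min and 1.01, 2.49 and 3.09 FPKM at 0 min. HFR1 was called, and its value of 1.78 (SE 0.37, limma adjusted p = 0.0053) was made of 0.31 within GR-KAN1 and -1.47 within WT, and it was not called without the code series in the model (1.09, adjusted p = 0.324). In WT replicates 1 to 3 it had 0.857, 0.643 and 0.376 FPKM at 120 min and 3.09, 2.98 and 2.59 FPKM at 0 min. Replicates 4 to 6 had 1.64, 1.85 and 1.97 FPKM at 120 min and 1.01, 2.39 and 2.03 FPKM at 0 min. The WT fall was thus clear only in replicates 1 to 3.

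The remaining large rises were of genes of unknown or loosely known function. AT4G15620 of a membrane protein family rose by 2.02 (SE 0.37, limma adjusted p = 0.00121), AT2G34340, annotated as a senescence regulator, by 1.795 (SE 0.36, limma adjusted p = 0.00346), and AT4G03420 of domain family DUF789 by 1.53 (SE 0.28, limma adjusted p = 0.00123). AT3G61028 and AT3G60940, both annotated as a putative endonuclease or glycosyl hydrolase, rose by 1.90 and 1.67 (adjusted p = 0.00671 and 0.00552). AT1G05562, a non-coding RNA that overlaps AT1G05560, rose by 1.72 (SE 0.34, limma adjusted p = 0.00263). For each of these genes all 3 GR-KAN1 libraries at 120 min lay above the highest GR-KAN1 library at 0 min, as they did for 11% of all genes tested. The same levels were used to call these genes, so this is description only.

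**Figure D2:**
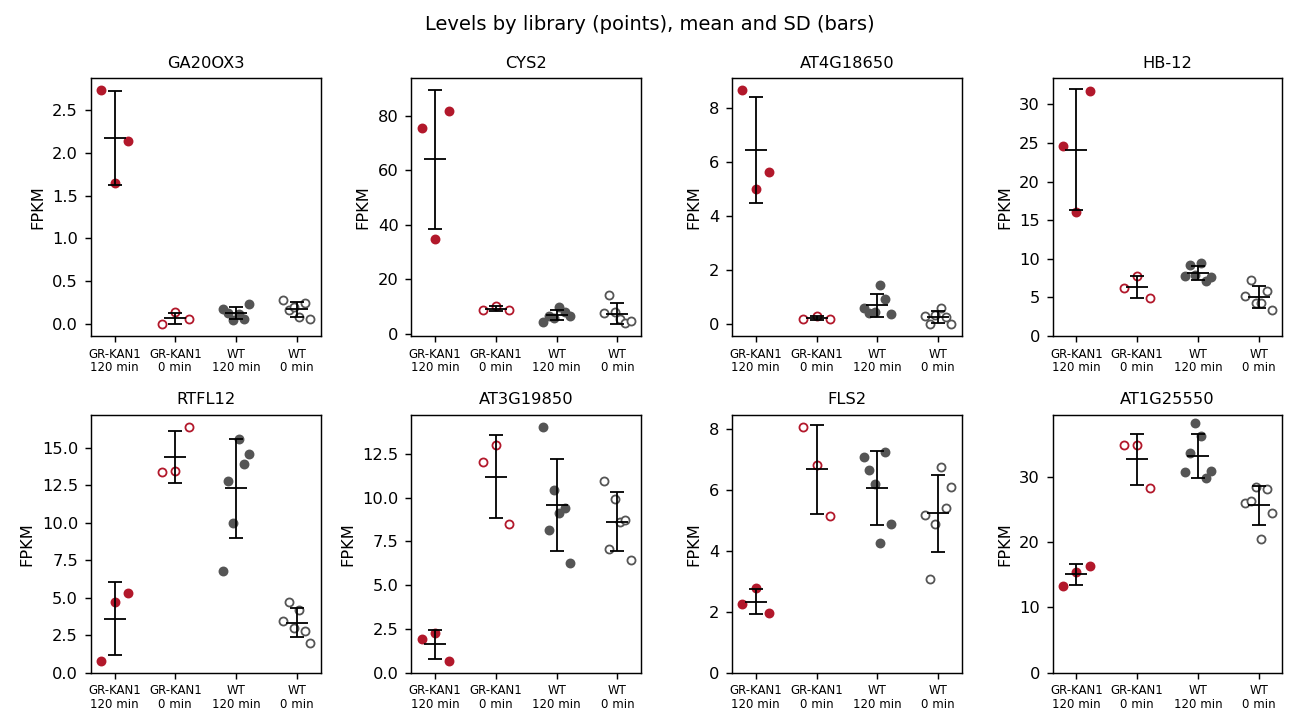
Levels (FPKM, linear axes) of 4 genes that rose (top) and 4 that fell (bottom) in each library, with GR-KAN1 in red and WT in grey, 120 min filled and 0 min open, and bars for mean and SD (n = 3 for GR-KAN1, 6 for WT). In GA20OX3, CYS2 and AT4G18650 the GR-KAN1 libraries at 120 min stand apart from all others, while RTFL12 was as high in GR-KAN1 at 0 min as in WT at 120 min.

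The falls included several regulators of transcription. AT1G25550 (chromosome 1, 8976326 to 8978305, plus strand) is annotated as a myb-like transcription factor, and its promoter above holds 5 matches. AT1G25550 had 13.3, 15.5 and 16.4 FPKM in GR-KAN1 at 120 min and 34.8, 34.9 and 28.2 FPKM at 0 min, against a lowest, median and highest value of 29.8, 32.2 and 38.2 FPKM in WT at 120 min and 20.4, 26.1 and 28.4 FPKM in WT at 0 min. The WT change was 0.19, all 3 GR-KAN1 libraries at 120 min lay below every other library, and the gene fell by 1.28 (SE 0.20, limma adjusted p = 9.87e-05) on the log2 scale. AT5G61590, named DEWAX in the annotation, is an ERF-type factor known to repress wax synthesis. It had 13.3, 17.1 and 9.17 FPKM in GR-KAN1 at 120 min and 40.3, 31.2 and 34.5 FPKM at 0 min, against 44.4 to 71.9 and 18.8 to 41.4 FPKM in WT, a change of -2.04 (SE 0.33, limma adjusted p = 0.000248). BEE1 (AT1G18400), a bHLH protein that brassinosteroids induce early, had 4.96, 6.06 and 6.88 FPKM in GR-KAN1 at 120 min and 23.4, 18 and 14 FPKM at 0 min, against 12.1 to 22.3 and 10.02 to 20.6 FPKM in WT, a change of -1.50 (SE 0.28, limma adjusted p = 0.00165). No GR-KAN1 library of BEE1 or AT5G61590 at 120 min reached the lowest WT library. At 120 min GR-KAN1 lay below all WT libraries for 7.78% of all genes tested, and the same levels were used to call these genes.

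JAZ6 (AT1G72450), a repressor of jasmonate responses, had 6.29, 8.59 and 12.9 FPKM in GR-KAN1 at 120 min and 15.6, 18.5 and 17.3 FPKM at 0 min, against 16.9 to 27.8 and 10.4 to 16.5 FPKM in WT, and changed by -1.51 (SE 0.27, limma adjusted p = 0.000923). Of that change, -0.90 took place within GR-KAN1, and the WT change was 0.61. Smaller falls were called for the ERF-type genes AT4G39780 (-1.33, adjusted p = 0.00121) and AT5G07580 (-1.15, adjusted p = 0.00735) and the bHLH gene AT2G31730 (-0.96, adjusted p = 0.00979). AT1G21000 of the PLATZ zinc-binding family changed by -1.297 (adjusted p = 0.00424) and AT4G27900, a CCT motif protein, by -1.11 (adjusted p = 0.00604). In all 5 the GR-KAN1 libraries at 120 min lay below all WT libraries at 120 min, as they did for 7.78% of all genes tested. The same levels were used to call these genes, so this is description only. AT5G07580 overlaps AT5G07590, and AT2G31730 was not called with only the 4 groups in the model (adjusted p = 0.0640).

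AT3G19850, FLS2, CRK30 and RLM3 fell, and they were named for the size of their change. AT3G19850 (chromosome 3, 6898163 to 6901334, minus strand) belongs to the NPH3 family, whose founding member acts in phototropism. AT3G19850 had 1.92, 2.24 and 0.683 FPKM in GR-KAN1 at 120 min and 12.1, 13 and 8.52 FPKM at 0 min, against a lowest, median and highest value of 6.27, 9.26 and 14.1 FPKM in WT at 120 min and 6.46, 8.68 and 11 FPKM in WT at 0 min. The WT change was -0.06, and GR-KAN1 at 120 min lay below every other library, with a change of -2.48 (SE 0.40, limma adjusted p = 0.000248). FLS2 (AT5G46330) encodes the receptor kinase that binds bacterial flagellin. FLS2 had 2.23, 2.77 and 1.96 FPKM in GR-KAN1 at 120 min and 8.06, 6.8 and 5.13 FPKM at 0 min, against a lowest, median and highest value of 4.26, 6.41 and 7.24 FPKM in WT at 120 min and 3.06, 5.27 and 6.75 FPKM in WT at 0 min. It fell by 1.82 (SE 0.31, limma adjusted p = 0.000404) on the log2 scale. CRK30 (AT4G11460), a cysteine-rich receptor-like kinase, had 1.96, 1.93 and 0.852 FPKM in GR-KAN1 at 120 min and 9.32, 10.9 and 6.3 FPKM at 0 min, against 8.83 to 18.6 and 9.64 to 24.4 FPKM in WT, a change of -1.94 (SE 0.33, limma adjusted p = 0.0005). RLM3 (AT4G16990), a TIR-type disease resistance gene, had 6.58, 6.46 and 6.6 FPKM in GR-KAN1 at 120 min and 18.1, 18.3 and 12.1 FPKM at 0 min, against 15.3 to 28.7 and 10.6 to 28.3 FPKM in WT, a change of -1.54 (SE 0.32, limma adjusted p = 0.00489). In both, the levels in WT replicates 4 to 6 were among the highest; within the code series of GR-KAN1 the changes were -2.15 (adjusted p = 0.000807) for CRK30 and -1.76 (adjusted p = 0.00816) for RLM3. RLM3 was not called without the code series in the model (-1.39, adjusted p = 0.0539).

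Further single genes fell, and they belong to no list tested here. ARL (AT2G44080), which promotes organ growth downstream of brassinosteroids, had 13.6, 13.7 and 23.9 FPKM in GR-KAN1 at 120 min and 38.6, 35.4 and 25.5 FPKM at 0 min, against 25.8 to 69.5 and 13.3 to 35.3 FPKM in WT, a change of -1.69 (SE 0.35, limma adjusted p = 0.00564). AT4G34770, a SAUR-like gene of the family that auxin induces, had 6.92, 8.18 and 8.06 FPKM in GR-KAN1 at 120 min and 24, 21.5 and 18.6 FPKM at 0 min, against 27.7 to 57.4 and 10.8 to 28.1 FPKM in WT, a change of -1.95 (SE 0.35, limma adjusted p = 0.000923). Their changes were -0.97 and -1.41 within GR-KAN1, and 0.72 and 0.54 within WT. SPP2 (AT3G52340), the phosphatase of the last step of sucrose synthesis, had 4.09, 4.73 and 6.73 FPKM in GR-KAN1 at 120 min and 16.9, 14.6 and 10.13 FPKM at 0 min, against 12.9 to 23.3 and 9.07 to 17 FPKM in WT, a change of -1.58 (SE 0.26, limma adjusted p = 0.000275). It overlaps AT3G52345. AT1G28660, a GDSL-type lipase, had 20.9, 20.8 and 17.8 FPKM in GR-KAN1 at 120 min and 91.5, 80.7 and 59.2 FPKM at 0 min, against 45.4 to 62.6 and 38.4 to 82.9 FPKM in WT, a change of -1.76 (SE 0.31, limma adjusted p = 0.000568). A nucleotide-sugar transporter family gene, AT1G57980, changed by -1.25 (SE 0.25, limma adjusted p = 0.00299).

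For several of the largest falls GR-KAN1 started high. RTFL12 (AT4G13395) encodes a small peptide of the ROTUNDIFOLIA4-like family, which limits cell proliferation when overproduced. RTFL12 had 0.807, 4.72 and 5.3 FPKM in GR-KAN1 at 120 min and 13.4, 13.4 and 16.4 FPKM at 0 min, against a lowest, median and highest value of 6.8, 13.4 and 15.6 FPKM in WT at 120 min and 1.99, 3.21 and 4.72 FPKM in WT at 0 min. The groups at 0 min did not overlap, with GR-KAN1 1.83 higher on the log2 scale, and its change was -2.12 within GR-KAN1 and 1.25 within WT. The change beyond WT was -3.37 (SE 0.57, limma adjusted p = 0.000404), and at 120 min GR-KAN1 was still lower than WT, with a difference of -1.53 (SE 0.41, limma adjusted p = 0.0143). PUP14 (AT1G19770), a purine permease that takes up cytokinin and overlaps AT1G19780, had 18.7, 18.4 and 18.9 FPKM in GR-KAN1 at 120 min and 40.4, 42.3 and 42.1 FPKM at 0 min, against 15.8 to 28 and 14.2 to 26.4 FPKM in WT. It fell into the range of WT, by 1.125 (SE 0.22, limma adjusted p = 0.00314) on the log2 scale. CAF1a (AT3G44260), which removes poly(A) tails from messenger RNA, had 2.82, 2.44 and 7.09 FPKM in GR-KAN1 at 120 min and 10.3, 14.8 and 13.8 FPKM at 0 min, against 4.87 to 6.8 and 2.58 to 5.61 FPKM in WT. It changed by -2.10 (SE 0.42, limma adjusted p = 0.0036) and did not differ past the threshold from WT at 120 min (-0.70, adjusted p = 0.198). WRKY18 (AT4G31800), a defence regulator, had 2.41, 2.53 and 3.9 FPKM in GR-KAN1 at 120 min and 5.91, 10.05 and 10.6 FPKM at 0 min, against 3.46 to 6.68 and 2.76 to 3.95 FPKM in WT. It changed by -1.89 (SE 0.36, limma adjusted p = 0.00165) and ended lower than WT, with a difference of -0.86 (SE 0.26, limma adjusted p = 0.0335).

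These genes moved beside a list of touch and rapid stress genes, which handling can induce within minutes. Of its 13 members tested, 12 had a negative change beyond WT and 1 passed the test, with a median of -1.31 (median of all genes 0.02). An unadjusted limma p under 0.05 was had by 7 of the 13. Of all 19251 genes tested, 1736 had such a p and 0.847% were called. At 0 min the list's median difference from WT was 1.71, GR-KAN1 higher, and at 120 min 0.28. The summed level of the list was 179 to 490.0 FPKM in GR-KAN1 at 120 min and 323 to 407 FPKM at 0 min, against 211 to 334 FPKM in WT at 120 min and 135 to 289 FPKM at 0 min. SZF1 (AT3G55980), a zinc finger gene of salt stress, was the called member, with 3.01, 4.09 and 8.85 FPKM in GR-KAN1 at 120 min and 9.43, 16.7 and 15.3 FPKM at 0 min, against 2.72 to 6.52 and 2.27 to 3.37 FPKM in WT. It changed by -2.17 (SE 0.47, limma adjusted p = 0.00735), had a difference from WT at 120 min that missed the threshold (-0.20, adjusted p = 0.834), and was not called without GR-KAN1 120 min replicate 1 (-1.87, adjusted p = 0.0685). WRKY40, a defence factor, had 1.5, 3.05 and 16.6 FPKM in GR-KAN1 at 120 min, so that replicate 3 differed widely from the other two, and its change of -2.80 did not pass the test (adjusted p = 0.111), though it did in 1 of 18 fits without 1 library (-3.69, adjusted p = 0.0139). TCH4, a wall enzyme of the touch response, had 14.1, 16 and 11.7 FPKM in GR-KAN1 at 120 min and 26.8, 30.5 and 32 FPKM at 0 min, against 9.77 to 20.9 and 5.58 to 12.1 FPKM in WT (-1.58, adjusted p = 0.118). TCH4 was called without the code series in the model (-1.795, adjusted p = 0.0381) and with only the 4 groups in it (-1.39, adjusted p = 0.0307). The part of these genes in the falls of genes that started high was not tested.

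Single genes of abscisic acid, the hormone of drought and dormancy, were called at breakdown, perception and signalling. CYP707A3 (AT5G45340), an abscisic acid 8′-hydroxylase that breaks the hormone down, had 0.813, 0.722 and 0.662 FPKM in GR-KAN1 at 120 min and 3.53, 5.95 and 5.25 FPKM at 0 min, against 0.997 to 1.89 and 0.594 to 1.65 FPKM in WT. It started above every WT library and changed by -2.49 (SE 0.48, limma adjusted p = 0.00228), and at 120 min its difference from WT was -0.60 (adjusted p = 0.385). PYL6 (AT2G40330), a receptor, had 13.1, 18.4 and 14.8 FPKM in GR-KAN1 at 120 min and 24.1, 24.8 and 30.1 FPKM at 0 min, against 29.3, 35.1 and 43.5 FPKM (lowest, median and highest) in WT at 120 min and 18.8, 22.2 and 31.7 FPKM at 0 min. GR-KAN1 at 120 min lay below every other library, and PYL6 changed by -1.35 (SE 0.30, limma adjusted p = 0.00926), of which -0.76 within GR-KAN1. The call was lost without GR-KAN1 120 min replicate 1 (-1.24, adjusted p = 0.0550). ABI2 (AT5G57050), a phosphatase of clade A that holds the pathway off until a receptor binds it, had 2.61, 2.88 and 2.81 FPKM in GR-KAN1 at 120 min and 0.83, 1.45 and 1.1 FPKM at 0 min, against 1.21, 1.33 and 1.38 FPKM in WT at 120 min and 1.11, 1.18 and 1.65 FPKM at 0 min. It rose by 1.01 (SE 0.20, limma adjusted p = 0.0036), with no overlap between GR-KAN1 at 120 min and any other group.

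Few members of these families were called. Of all 19251 genes tested, 0.847% were called and 1736 had an unadjusted limma p under 0.05. Of 9 receptor genes tested, 7 had negative changes and 4 an unadjusted limma p under 0.05, with a median of -0.32. PYL6 alone passed the test. PYL9 had the highest change, with 7.93, 8.02 and 12.5 FPKM in GR-KAN1 at 120 min and 4.38, 6.53 and 8.09 FPKM at 0 min, and did not pass the test (0.97, adjusted p = 0.0989), though it did in 1 of 18 fits without 1 library (1.15, adjusted p = 0.0476). Of 6 clade A phosphatases tested, 5 had positive changes and 2 an unadjusted limma p under 0.05, with a median of 0.20. ABI2 alone passed the test. HAI1, the next in size, had 1.01 to 2.27 FPKM in GR-KAN1 at 120 min and 0.465 to 0.543 FPKM at 0 min, against 0.144 to 0.604 and 0.24 to 0.757 FPKM in WT and a change of 0.84 (adjusted p = 0.413).

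In gibberellin metabolism, GA20OX3 was called, but since it entered the test through the GR-KAN1 groups in which it is high, its call is not counted for the list. The median of the 5 oxidase genes that passed the floor was -0.20, as a description. GA2OX2, which inactivates gibberellins, had 1.26, 1.68 and 2.69 FPKM in GR-KAN1 at 120 min and 2.66, 2.45 and 3.78 FPKM at 0 min, against 1.09 to 1.61 and 0.643 to 1.85 FPKM in WT, and did not pass it (-0.98, adjusted p = 0.169). Type-A response regulators, the early genes of cytokinin, were negative in 9 of 9, with a median of -0.29. None passed the limma test, and 3 had an unadjusted p under 0.05, as had 1736 of all 19251 genes tested. Of 7 brassinosteroid metabolism genes none passed it and 1 had such a p, with a median of -0.18.

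Single auxin genes were called at repression and at transport, and both calls depended on 1 library. Aux/IAA genes encode short-lived repressors that auxin itself induces. Of 15 tested, 13 had a negative change, with a median of -0.50. Limma gave 7 of them an unadjusted p under 0.05, beside 1736 of all 19251 genes. Of the 15, 1 passed the test, as did 0.847% of all genes. IAA2 (AT3G23030) was the one that fell, with 15.8, 17.8 and 21.8 FPKM in GR-KAN1 at 120 min and 29.6, 33.6 and 33.6 FPKM at 0 min, against 21.4, 28.7 and 39.6 FPKM (lowest, median and highest) in WT at 120 min and 12.8, 21.3 and 29.9 FPKM at 0 min. It changed by -1.18 (SE 0.26, limma adjusted p = 0.00926), and the call was lost without GR-KAN1 120 min replicate 1 (-1.08, adjusted p = 0.0579). Its neighbour in the family, IAA1, had 9.74 to 13 FPKM in GR-KAN1 at 120 min and 19 to 23 FPKM at 0 min, against 13.2 to 22.3 and 9.36 to 20.9 FPKM in WT, with a change of -1.07 that did not pass the test (adjusted p = 0.188).

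Of 16 auxin transport genes 1 was called, a rise, where 0.291% of all genes rose, with a median of -0.06 over the list. An unadjusted limma p under 0.05 was had by 3 of the 16, beside 1736 of all 19251 genes. ABCB1 (AT2G36910), an auxin exporter of the ABC family, had 21.6, 17.1 and 16.9 FPKM in GR-KAN1 at 120 min and 10.5, 8.67 and 8.68 FPKM at 0 min, against 4.57, 6.58 and 10.04 FPKM in WT at 120 min and 7.02, 12.8 and 16.7 FPKM at 0 min. It rose by 1.24 (SE 0.27, limma adjusted p = 0.00946), and this call too was lost without GR-KAN1 120 min replicate 1 (1.13, adjusted p = 0.0610). PIN4, an exporter of the PIN family on which KAN1 has been described to act, had 4.49, 3.84 and 2.38 FPKM in GR-KAN1 at 120 min and 8.27, 6.96 and 6.5 FPKM at 0 min, against 6.92 to 12.8 and 5.39 to 12.4 FPKM in WT. Its change beyond WT was -0.90 (adjusted p = 0.104), while at 120 min itself GR-KAN1 was lower than WT, with a difference of -1.01 (SE 0.19, limma adjusted p = 0.000238). None of 5 GH3 genes, which conjugate auxin, and none of 7 auxin synthesis genes was called by limma, with 2 and 1 at an unadjusted p under 0.05 and medians of 0.18 and -0.30.

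No core leaf polarity gene was called at 120 min. Of 10 KANADI and other abaxial genes and 7 HD-ZIP III and other adaxial genes tested with limma, 3 and 1 had an unadjusted p under 0.05, with medians of -0.26 and -0.13. Among all 19251 genes tested, 1736 had such a p. AS2 (AT1G65620) had 1.24, 1.26 and 1.21 FPKM in GR-KAN1 at 120 min and 2.7, 2.09 and 1.69 FPKM at 0 min, against 2.92, 4.42 and 6.34 FPKM (lowest, median and highest) in WT at 120 min and 2.39, 3.51 and 5.99 FPKM at 0 min. The GR-KAN1 libraries at 120 min were below those at 0 min and below all WT libraries, the change beyond WT was -0.84 (SE 0.26, limma adjusted p = 0.123), and at 120 min AS2 was lower than in WT, with a difference of -1.16 (SE 0.19, limma adjusted p = 1.54e-05). It was called with only the 4 groups in the model (-0.94, adjusted p = 0.0375). KAN2 and KAN3, relatives of KAN1, had changes of -0.60 and -0.68 (adjusted p = 0.236 and 0.369). None of 4 LITTLE ZIPPER genes, small inhibitors of HD-ZIP III proteins, was called by limma, 2 had an unadjusted p under 0.05, and their median was 0.07.

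HD-ZIP II genes, which act beside HD-ZIP III proteins in leaf polarity and in shade, had 2 called members of 8 tested, both falls, where 0.556% of all genes fell, while the list's median was 0.24. HAT22 (AT4G37790) had 1.81, 3 and 2.47 FPKM in GR-KAN1 at 120 min and 4.54, 5.83 and 3.75 FPKM at 0 min, against 3.94 to 6.38 and 3.04 to 4.69 FPKM in WT, and changed by -1.26 (SE 0.31, limma adjusted p = 0.0248). HAT2 (AT5G47370) had 4.53, 6.36 and 6.55 FPKM in GR-KAN1 at 120 min and 12.2, 11.8 and 12.9 FPKM at 0 min, against 10.3 to 12 and 9.27 to 12.8 FPKM in WT, and changed by -0.92 (SE 0.24, limma adjusted p = 0.0488). HAT2 was also not called with a pseudocount of 1 (adjusted p = 0.0520) or with no floor (adjusted p = 0.0568). Both calls depended on single libraries: HAT22 kept its call in 15 of 18 fits without 1 library and HAT2 in 5, and HAT22 was not called within the code series of GR-KAN1 (-1.32, adjusted p = 0.0617).

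**Figure D3:**
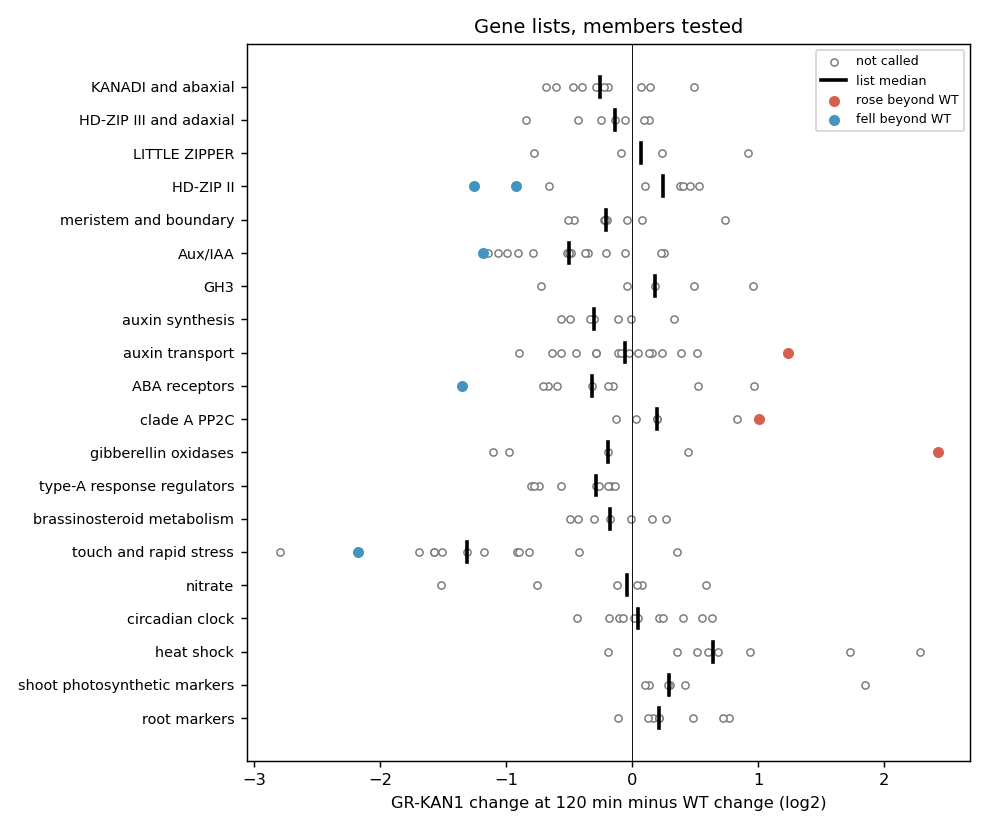
Change beyond WT at 120 min (log2) of every tested member of the 20 gene lists, with genes that rose in red, genes that fell in blue, others open, and a bar at each list's median. The touch and rapid stress list has the lowest median, -1.31, with 1 of 13 members called, where 0.847% of all genes were.

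The remaining lists were near the median of all genes or were carried by uncalled values. No member was called by limma among 8 meristem and boundary genes (median -0.21), 6 nitrate genes (median -0.04), 11 circadian clock genes (median 0.05) or 8 heat shock genes (median 0.64). An unadjusted p under 0.05 was had by 1 of the meristem, 1 of the nitrate, 0 of the clock and 1 of the heat shock genes. Of all 19251 genes tested, 1736 had such a p. Shoot and root were checked with 6 photosynthetic and 8 root markers, none of them called by limma and 0 with an unadjusted p under 0.05, with medians of 0.29 and 0.21. All 6 photosynthetic changes were positive, but RBCS1A was listed at 0 in all 6 GR-KAN1 libraries, so its value came from WT alone. Sums over the 6 markers hold RBCS1A only in those WT libraries where it was not at 0. The summed level of the 6 markers was 8187 to 44323 FPKM in GR-KAN1 at 120 min and 13850 to 29523 FPKM at 0 min. In WT it was 9725 to 44745 FPKM at 120 min and 8263 to 70498 FPKM at 0 min. With so wide a spread, the lack of a call cannot show equal shoot content. Photosynthetic markers other than RBCS1A were present in every group: LHCB2.1, a light-harvesting protein gene, had 538 to 2608 FPKM in GR-KAN1 at 120 min and 948 to 1743 FPKM at 0 min, against 533 to 1335 and 572 to 1214 FPKM in WT. SHR, a regulator of root tissue layers, had 4.89 to 6.65 FPKM in GR-KAN1 at 120 min and 5.46 to 6.13 FPKM at 0 min, against 4.18 to 6.08 and 4.66 to 8.84 FPKM in WT. The summed root markers were 85.3 to 98.4 FPKM in GR-KAN1 at 120 min and 61.7 to 99.1 FPKM at 0 min, against 55.8 to 75.4 FPKM and 69.7 to 103 FPKM in WT at those times, and their part in the results was not tested.

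The 120 min genes differed in the times at which they were called. At 30 min, 2 genes had risen and 11 had fallen beyond WT (0.0104% and 0.0571%, together 0.0675% of genes tested), and at 60 min 43 had risen and 163 had fallen (0.223% and 0.847%, together 1.07%). All 3 times use the same 0 min libraries, so their changes are given side by side as values. RTFL12 had a change of -3.82 at 30 min (adjusted p = 0.000116), -3.05 at 60 min and -3.37 at 120 min. PUP14 was at -1.123, -1.13 and -1.125 (adjusted p = 0.0107 at 30 min), and AT1G25550 at -1.15, -1.43 and -1.28 (adjusted p = 0.00156 at 30 min). These genes had reached the size of their 120 min change at the first time sampled. CYP96A9 was the leading rise called at 30 min, with 1.47 (adjusted p = 0.038), then 2.39 and 2.20. Within code series Ot79, 0 rises and 2 falls were called at 30 min, and with only the groups of the contrast in the model 0 rises and 4 falls. The 30 min call of CYP96A9 was thus lost in both settings.

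GA20OX3, CYS2 and AT4G18650 were called at 60 min and not at 30 min. GA20OX3 had changes of 0.34, 1.21 (adjusted p = 0.000817) and 2.43, CYS2 of 0.80, 2.26 (adjusted p = 0.000116) and 3.01, and AT4G18650 of 0.57, 2.17 (adjusted p = 8.85e-05) and 2.88. As GA20OX3 and AT4G18650 reached the floor only in GR-KAN1 groups, their calls are given as description. A later set was called at 120 min and at neither earlier time. SQP1 had changes of 0.17, 0.71 and 2.00, MES10 of -0.10, 0.64 and 1.74, SPP2 of 0.13, -0.67 and -1.58, and RLM3 of -0.07, -0.95 and -1.54. HB-12 and ABI2 were near their 120 min values by 60 min, at 1.54 and 1.125. Whether the changes differ between 30, 60 and 120 min was not tested.

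**Figure D4:**
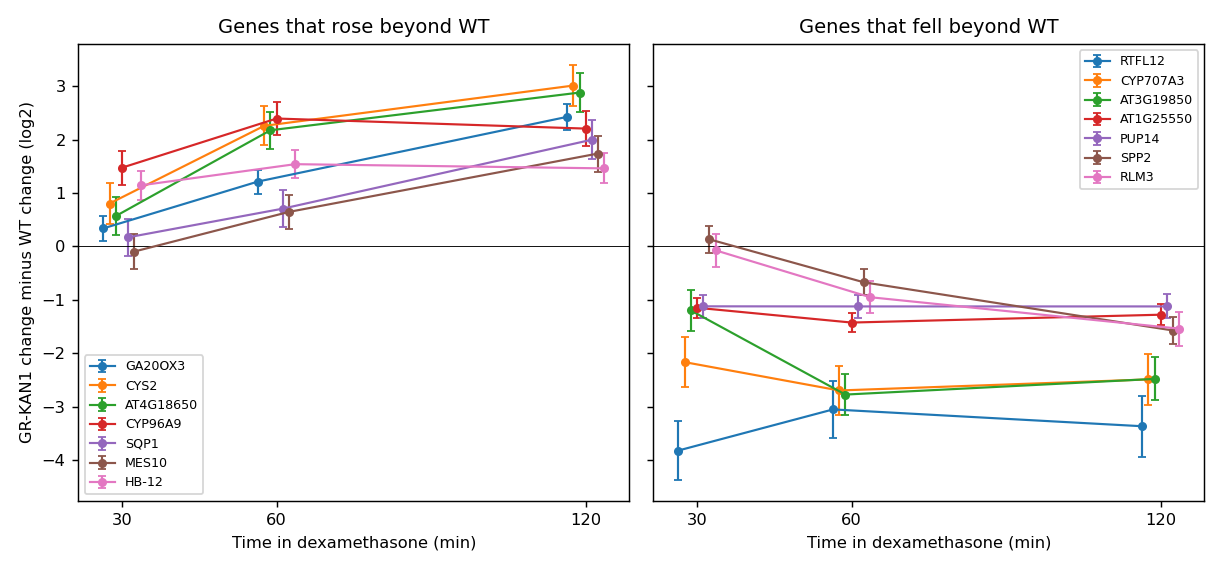
Change of GR-KAN1 minus change of WT (log2, bars are SE) at 30, 60 and 120 min for 7 genes that rose (left) and 7 that fell (right), with points shifted sideways so that bars can be seen. PUP14 and AT1G25550 are flat from 30 min on, while MES10, SQP1, SPP2 and RLM3 move away from 0 between 30 and 120 min.

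Dexamethasone and 120 min in culture are shared by all GR lines, so the change in GR-KAN1 was also set against the mean change of GR-AS2, GR-STM and GR-REV. It was higher for 251 genes (1.3%) and lower for 184 (0.956%). The genes named here and in the next paragraph were chosen by their change in the same GR-KAN1 libraries. Their p-values in this comparison are therefore not independent of that choice. CYS2 exceeded that mean by 3.83 (SE 0.34, limma adjusted p = 1.50e-11). GA20OX3 and AT4G18650 exceeded it by 2.41 (SE 0.21) and 3.18 (SE 0.33). These latter genes entered the test only through GR-KAN1 groups, which tilts the comparison, so their values are description only. Beyond WT, CYS2 changed by 3.01 in GR-KAN1, -0.36 in GR-AS2, -0.96 in GR-STM and -1.15 in GR-REV. HB-12 and ABI2 exceeded the mean of the other lines by 1.46 and 1.16 (adjusted p = 0.000121 and 2.79e-05). Among falls, AT1G25550 differed from that mean by -1.26 (SE 0.17, limma adjusted p = 4.43e-06), AT3G19850 by -2.53 (SE 0.36, limma adjusted p = 4.81e-06), CRK30 by -2.03 (SE 0.30, limma adjusted p = 1.06e-05) and PYL6 by -1.42 (SE 0.26, limma adjusted p = 0.000434).

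Of the genes named above that started high in GR-KAN1, 6 are set beside the other lines here. RTFL12 changed beyond WT by -3.37 in GR-KAN1 and -2.38 in GR-STM, against -0.33 in GR-AS2 and -0.50 in GR-REV, and CYP707A3 by -2.49 in GR-KAN1 and -1.65 in GR-STM. Both still differed from the mean of the other lines (adjusted p = 0.00392 and 0.0248). CAF1a, at -2.10 in GR-KAN1 and -1.82 in GR-STM, did not pass that test (-1.20, adjusted p = 0.0778), nor did SZF1 (-1.33, adjusted p = 0.0759) or HFR1 (1.08, adjusted p = 0.0648). SZF1 was at -2.17 in GR-KAN1 and -1.48 in GR-STM. PUP14 was at -1.125 in GR-KAN1 and -0.67 in GR-STM, and WRKY18 at -1.89 and -0.75, and both differed from the mean of the other lines (-0.99 and -1.50, adjusted p = 0.00136 and 0.00231). MES10 exceeded the mean by 1.75 (SE 0.30, limma adjusted p = 0.000134) although the other lines were split, with 1.32 in GR-STM and -1.31 in GR-REV.

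**Figure D5:**
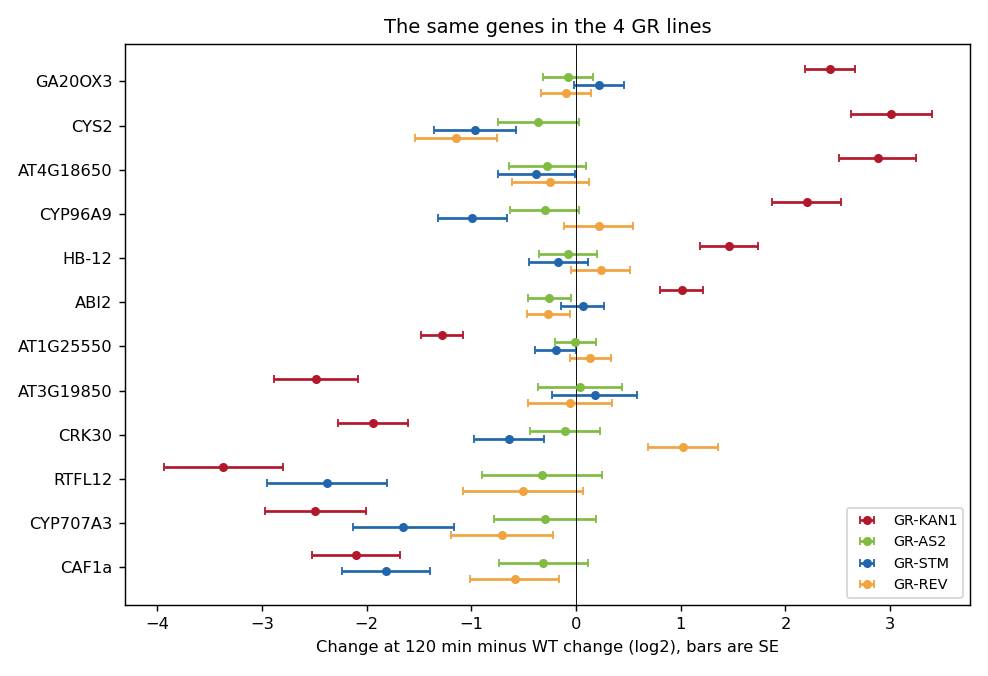
Change at 120 min minus the change in WT (log2, bars are SE) in GR-KAN1, GR-AS2, GR-STM and GR-REV for 6 genes that rose and 6 that fell in GR-KAN1. In the top 8 genes the other 3 lines lie near 0 or on the other side of it, while in RTFL12, CYP707A3 and CAF1a GR-STM lies close to GR-KAN1.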

How the data were processed

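RNA was measured in 71 libraries of whole Arabidopsis seedlings, 18 of which form the comparison described above. The deposited values are FPKM with the geometric normalization of Cufflinks, per the labels. The authors mapped reads with TopHat2 2.0.10 to TAIR10, per the submitters' processing notes. Neither a version of Cufflinks nor the use of strand is given in the sources used here. FPKM keep no read totals, so depth is unknown. The series text calls all replicates biological. The table held 22346 entries, of which 14 placeholders and 200 organelle genes were left out, and 0 columns of other samples.

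Levels were tested with limma 3.58.1 (R 4.3.3) as log2(FPKM + 0.5) over 19251 nuclear genes, those with a mean of 1 FPKM or more in some group. The linear model comprised 20 group means and the library code series (Ot79, Ot86 or OtA0) as a covariate, with 49 residual degrees of freedom and an empirical Bayes trend. Tests were two-sided, and calls needed a p below 0.05 after Benjamini-Hochberg adjustment. WT replicates 4 to 6 carry series Ot86 at 0 min and OtA0 at 120 min, and all other libraries of the comparison Ot79. In replicates 4 to 6 series and time are therefore confounded. They inform the WT change only with the help of series differences seen at the other WT times. The model was tested on simulated data.

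The genes named are KAN1, AS2, members of 20 gene lists (197 genes, 168 tested), the 15 largest rises and 15 largest falls among genes called in all 18 fits without 1 library, and such genes annotated as a transcription factor, hormone or transporter gene. Comparison, members and lists were chosen with earlier results of these data known. Symbols and coordinates are those of RefSeq TAIR10.1, which held 19169 of the genes tested. Alternatives were other pseudocounts, floors, normalization, covariates, libraries and a replicate block.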

Additional observations from a re-analysis of the deposited data

Results flagged for a closer look

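Of 122 sets of 6 WT libraries of named genes, 5 had 1 library far from the others, 3 of them WT 120 min replicate 5, by Dixon's test. About 1 in 20 such sets is expected to be flagged where nothing stands apart. WT 120 min replicate 5 was the highest for CRK30, at 18.6 FPKM against 12.1 FPKM for the next, and for RLM3, at 28.7 FPKM against 19.9 FPKM for the next. The same library was the lowest for HAT22, at 3.94 FPKM against 5.55 FPKM for the next. WT 0 min replicate 2 was the highest for PYL9, at 12.6 FPKM against 6.76 FPKM for the next. WT 0 min replicate 3 was the highest for ABI2, at 1.65 FPKM against 1.25 FPKM for the next.

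The change at 120 min differed between GR-KAN1 and the mean of GR-AS2, GR-STM and GR-REV for 435 genes, by limma's test of the difference itself.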

How the results depend on the processing

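Calls at 120 min were lost or gained with the libraries used. Leaving out 1 library in turn gave 92 to 167 calls at 120 min (163 with all), 3 to 20 at 30 min (13), 105 to 231 at 60 min (206), 589 to 1065 for GR-KAN1 against WT at 120 min (1024) and 283 to 492 for GR-KAN1 against the other GR lines (435). The lowest counts came without GR-KAN1 0 min replicate 2 or GR-KAN1 120 min replicate 1 for the 120 min change, without GR-KAN1 0 min replicate 3 at 30 min, without GR-KAN1 0 min replicate 2 at 60 min, without GR-KAN1 120 min replicate 1 against WT and without GR-KAN1 0 min replicate 1 against the other lines. With only the groups of the contrast in the model, 322 genes were called at 120 min (134 rose, 188 fell) and 4 at 30 min. At 120 min this setting gave the same changes as the fit within code series Ot79, such as 1.27 for HB-12 in both. These settings differ at 120 min in the estimate of spread, not in the changes. Without the code series, 20 were called at 30 min, 113 at 60 min and 265 against the other lines. Within code series Ot79, 2 were called at 30 min, 106 at 60 min and 123 at 120 min. At 30 min quantile normalization gave 34 and a mean of at least 5 FPKM gave 8. The cause was not tested. All other alternatives stayed within 1.5 times, including 224 calls (65 rose, 159 fell) after quantile normalization at 120 min.

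Of 61 named genes, 59 kept direction and side of the threshold within code series Ot79, 60 after quantile normalization, 55 without the code series and 56 with only the groups of the contrast. KAN1, not called, changed sign without the code series (-0.0021), within series Ot79 (-0.063), with only the groups of the contrast (-0.063), after quantile normalization (-0.22) and in 1 or more fits without a library (-0.31 to 0.49). HAT2 missed the threshold with a pseudocount of 1 (adjusted p = 0.0520), with no floor (0.0568) and with the replicate block (0.0644), which changed no other named call. TCH4 was called without the code series and with only the groups of the contrast (adjusted p = 0.0381 and 0.0307), and AS2 under the second setting alone. HAT22 missed the threshold within series Ot79, HFR1, C/VIF1, HB-12 and RLM3 without the code series (adjusted p = 0.324, 0.0541, 0.0509 and 0.0539), and HB-12 and AT2G31730 with only the groups of the contrast (adjusted p = 0.0892 and 0.0640).

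Replicate numbers did not pair the samples: deviations of libraries with the same number correlated at -0.31 to 0.33, above 0.1 in 4 of 18 pairs. With the replicate block 154 genes were called at 120 min (57 rose, 97 fell), 9 at 30 min, 201 at 60 min, 1017 against WT and 449 against the other lines.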

Other observations

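The genes in this part fall outside the naming rule and were chosen after their values were seen. Beside GA20OX3 at gibberellin synthesis, GID1A (AT3G05120), a gibberellin receptor, fell: it had 3.49, 3.8 and 3.59 FPKM in GR-KAN1 at 120 min and 6.07, 7.66 and 8.15 FPKM at 0 min, against 5.96 to 8.32 and 5.52 to 7.28 FPKM in WT, a change of -1.01 (SE 0.23, limma adjusted p = 0.0121) that was called in 16 of 18 fits without 1 library. ABA2 (AT1G52340), an enzyme of abscisic acid synthesis, had 21.2, 19.4 and 22.5 FPKM in GR-KAN1 at 120 min and 14, 13.7 and 15.2 FPKM at 0 min, against 11.4 to 14.6 and 11.3 to 19 FPKM in WT. All 3 GR-KAN1 libraries at 120 min lay above the other libraries, and ABA2 rose by 0.81 (SE 0.19, limma adjusted p = 0.0135), with a call in 17 of 18 fits. Its annotated span overlaps 2 other genes.

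EXPA11 and EXPA10, expansins that loosen cell walls, rose by 1.46 (SE 0.32, limma adjusted p = 0.00799) and 1.097 (SE 0.28, limma adjusted p = 0.0372), and were called in 17 and 11 of 18 fits. MES9, a methylesterase like MES10, rose by 1.89 (SE 0.42, limma adjusted p = 0.011), with a call in 17 of 18 fits. GATA2 and GATA4, both GATA factors, rose by 1.41 and 1.07 (limma adjusted p = 0.033 and 0.0372), and CGA1, a GATA factor that cytokinin induces, changed by -1.33 (adjusted p = 0.0147). The 3 were called in 9, 9 and 15 of 18 fits. TEM1, a repressor of flowering, changed by -1.28 (adjusted p = 0.0426) and was called in 7 of 18 fits.

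AT5G28450, a chlorophyll a-b binding gene, had the largest positive change beyond WT of all called genes, 5.34 (SE 1.27, limma adjusted p = 0.0199), and the widest spread. It had 61.5, 47.8 and 14.9 FPKM in GR-KAN1 at 120 min and 2.18, 1.77 and 17.65 FPKM at 0 min, against 0.13 to 1.23 and 0.217 to 28.7 FPKM in WT. WT replicates 4 to 6, of other code series, stood at 0.217 to 0.372 FPKM at 0 min, below 9.16 to 28.7 FPKM in replicates 1 to 3. WT replicates 1 to 3 were thus lower at 120 min, at no more than 1.23 FPKM, and part of the 5.34 came from that fall. The call was kept in 12 of 18 fits.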
